A study of Homo sapiens with 6 samples.

Results

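Bone morphogenetic protein (BMP) signalling was followed through 10 genes in SUM159, an established human triple-negative breast cancer cell line. The members are the ligand gene BMP4, the protease gene BMP1, the receptor genes BMPR1A and BMPR2, the antagonist genes GREM1 and FST, the inhibitory SMAD gene SMAD6 and the target genes ID1, ID2 and ID3. They were chosen by symbol, and all 10 were found among the 60675 genes of the deposited count table. Of the 6 libraries, 3 were labelled DAPK3 KO, all from knockout line 3, and were compared with 3 labelled control, of the genotype DAPK3 WT. DAPK3 encodes a kinase that phosphorylates serine and threonine and belongs to the death-associated protein kinases, and all cells grew in the same serum-containing medium with insulin and hydrocortisone. The labels do not state whether replicates were grown separately, and the p-values thus reflect library-to-library spread, which may be technical. Only 1 knockout line was sequenced, so an effect of the knockout and a trait of that line cannot be told apart.

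BMP ligands are secreted proteins that bring together type I receptors, such as the BMPR1A product, and type II receptors, such as the BMPR2 product. The type I receptor then phosphorylates SMAD1, SMAD5 and SMAD9, which enter the nucleus with SMAD4 and switch on genes that include the ID genes and SMAD6. ID proteins bind E proteins and keep them off DNA, and SMAD6 holds the pathway back in a feedback loop. Gremlin 1 and follistatin, the products of GREM1 and FST, bind ligands outside the cell, follistatin mainly activins. Despite its name, BMP1 is not a BMP-type ligand: it is a tolloid protease that trims procollagens and cleaves the antagonist chordin.

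Promoter windows are shown for the members on which the results turn. BMP4 had the widest difference, which rests on low counts and on a filter described below. BMPR2 was the receptor that differed more, and SMAD6 the 1 tested member whose labels did not overlap. ID1 was the member that was higher where BMP4 was lower. Each is the 250 bases before a RefSeq gene start on GRCh38.p14, written 5′ to 3′ on the gene's own strand. Capitals mark the letters GGCGCC and the letters CAGAC or their reverse complement GTCTG, which resemble the sites bound by BMP-responsive SMADs and by SMAD4.
BMP4, chr14:53955051-53955300, minus strand: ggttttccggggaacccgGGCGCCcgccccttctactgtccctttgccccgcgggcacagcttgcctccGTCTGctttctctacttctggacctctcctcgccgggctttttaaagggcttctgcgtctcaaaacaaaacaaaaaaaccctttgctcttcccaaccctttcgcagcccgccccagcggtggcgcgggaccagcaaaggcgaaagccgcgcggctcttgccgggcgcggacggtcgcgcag
BMPR2, chr2:202376077-202376326, plus strand: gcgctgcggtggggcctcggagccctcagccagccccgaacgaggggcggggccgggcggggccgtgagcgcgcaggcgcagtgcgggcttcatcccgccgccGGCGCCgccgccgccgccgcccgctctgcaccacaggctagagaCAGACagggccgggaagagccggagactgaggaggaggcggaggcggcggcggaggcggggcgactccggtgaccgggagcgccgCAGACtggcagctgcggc
SMAD6, chr15:66701986-66702235, plus strand: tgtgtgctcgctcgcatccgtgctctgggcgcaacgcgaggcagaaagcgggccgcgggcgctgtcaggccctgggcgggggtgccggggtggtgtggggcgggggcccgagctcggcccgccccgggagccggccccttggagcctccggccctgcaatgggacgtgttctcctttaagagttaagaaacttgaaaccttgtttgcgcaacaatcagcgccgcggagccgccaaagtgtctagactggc
ID1, chr20:31605039-31605288, plus strand: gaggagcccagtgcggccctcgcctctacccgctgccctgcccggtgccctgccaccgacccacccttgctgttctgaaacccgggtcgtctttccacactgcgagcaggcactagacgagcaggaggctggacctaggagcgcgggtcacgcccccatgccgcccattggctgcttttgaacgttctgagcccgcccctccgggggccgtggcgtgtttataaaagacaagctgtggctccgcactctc
RefSeq gave windows for 9 of the 10 members, 12 windows in all, and BMP1 had none. Of the windows printed, BMP4 held 1 match to GGCGCC and 1 to CAGAC, BMPR2 held 1 and 2, and SMAD6 and ID1 held 0 of each. The BMP4 window is 1 of 3 listed for that gene and the only one of them with GGCGCC, and it was chosen with the matches known. Of the members' 12 windows, 3 held GGCGCC and 6 held CAGAC. Over all 35116 RefSeq windows of this length, 16.4% held GGCGCC and 38.0% held CAGAC on either strand. A match describes the letters of the window and is not a measured binding site. A window without a match says nothing of sites outside its 250 bases.

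The libraries did not divide by label alone. DAPK3 RNA stood at 13.1, 27.0 and 11.3 CPM (a count scaled to a common library size after TMM normalization) in KO R1, R2 and R3, against 26.1, 10.6 and 25.9 CPM across control libraries R1 to R3, so the libraries labelled KO R2 and control R2 each went against their label. KO and control name libraries by label throughout, and every direction given for them rests on those labels. The log2 fold change of DAPK3, KO over control, was −0.29 (SE 0.47, adjusted p = 0.88 by edgeR) with all libraries and −1.13 (SE 0.16, adjusted p = 0.0036 by edgeR) without both R2 libraries. The library names in the labels carry the numbers 7, 11 and 12 for KO R1, R2 and R3 and 1, 2 and 6 for control R1, R2 and R3. These numbers are 1, 6 and 11 in the libraries with more DAPK3 RNA and 2, 7 and 12 in those with less. Whether both R2 labels were exchanged was not tested, and an exchange would alter every value given here by label with all 6 libraries. Totals ran from 16312184 to 22970823 expected counts, and the first principal component, 74.7% of the variance, placed KO R2 with control R1 and R3 and placed control R2 with KO R1 and R3. Vimentin, CD44 and EGFR RNA were abundant throughout, at lowest 1423, 303 and 301 CPM, PGR was at 0 and ESR1 at most at 0.483 CPM, while ERBB2 lay between 52.1 and 96.9 CPM. Of 14 markers of blood, endothelium, liver, neurons and melanocytes, 10 stayed under 1 CPM in every library, and their summed level was 2.46 to 6.55 CPM in KO and 3.82 to 7.93 CPM in control. That sum was higher in each library with more DAPK3 RNA than in each with less, mostly through PTPRC. It stood at 4.19, 6.55 and 2.46 CPM across KO libraries R1 to R3, and 6.77, 3.82 and 7.93 CPM across control libraries R1 to R3. Its part in the results was not tested. Results are therefore given with all 6 libraries and without both R2 libraries, a comparison chosen with the DAPK3 levels known, so its p-values cannot serve as independent evidence on the labels.

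Per length, ID3 and ID1 were the most expressed members, and the antagonists were at the floor. Averaged over the 6 libraries and divided by the length of the merged exons, ID3 stood at 59.4 CPM per kb, ID1 at 36.3, BMP1 at 9.27, BMPR1A at 3.77, BMPR2 at 3.03, ID2 at 2.47, BMP4 at 0.505 and SMAD6 at 0.386. ID3 exceeded ID1 per kb in every library, by 1.35, 2.33 and 1.45 times in KO R1, R2 and R3 and by 2.43, 1.49 and 1.63 times in control R1, R2 and R3. The receptors changed places, with BMPR1A over BMPR2 per kb at 1.45, 0.943 and 1.78 in KO R1, R2 and R3 and 1.12, 1.60 and 1.09 in control R1, R2 and R3. Of the neighbours in this order, ID3 and ID1, BMPR1A and BMPR2, BMPR2 and ID2, and BMP4 and SMAD6 had overlapping ranges over the libraries. BMP1 lay apart from ID1 above it and BMPR1A below it, and ID2 lay apart from BMP4.

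**Figure D1:**
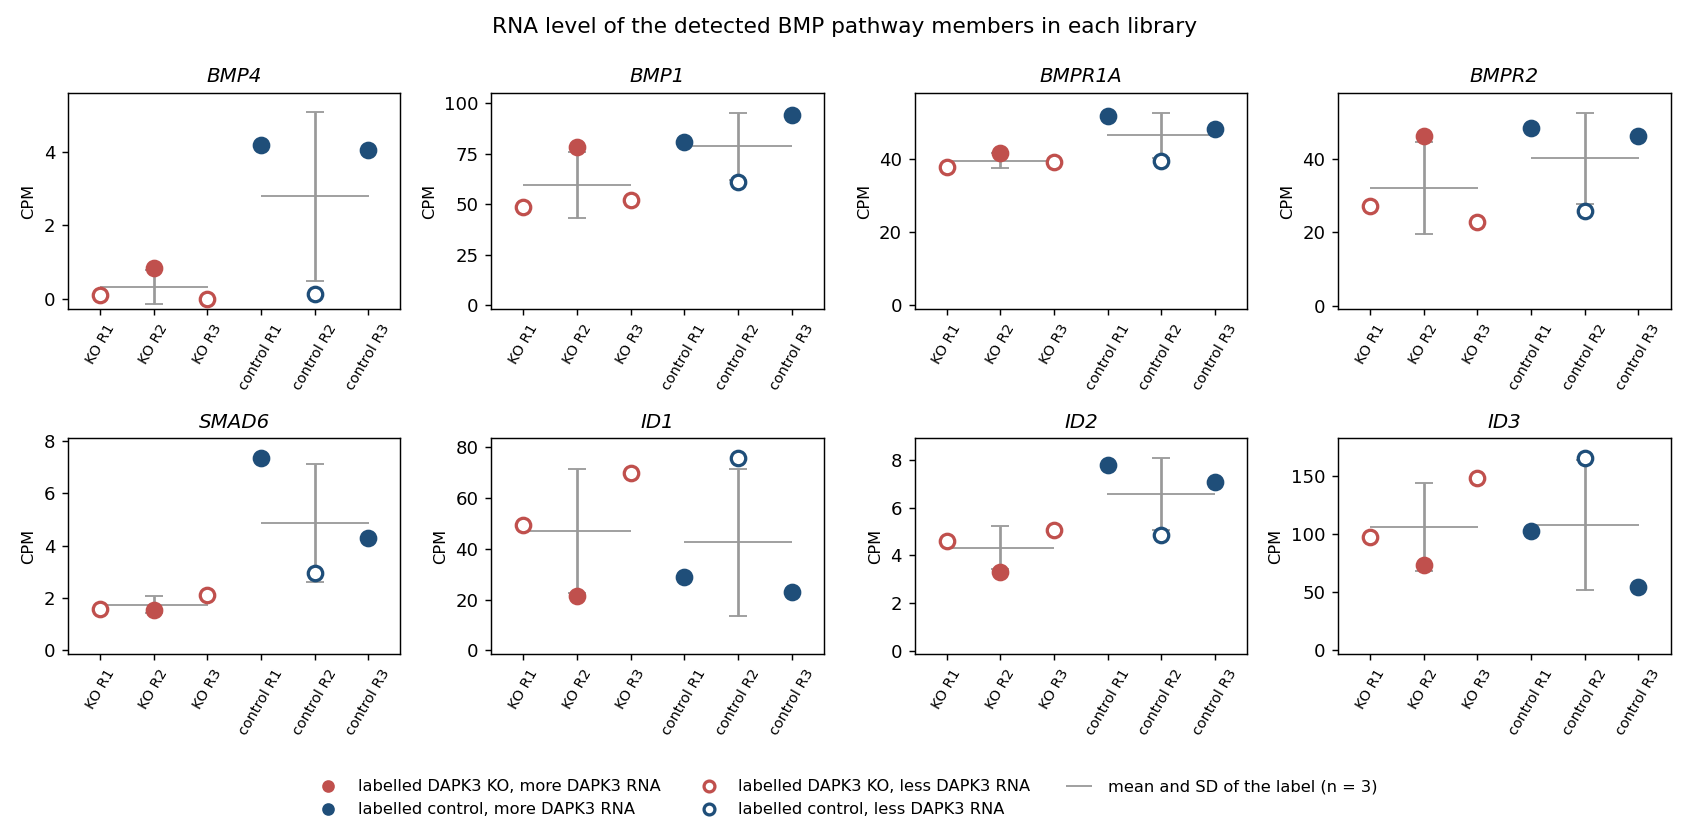
RNA level in CPM (vertical axes, linear) of the 8 members that passed the filter on low counts, in the 3 libraries labelled DAPK3 KO and the 3 labelled control; filled points are the libraries with 25.9 to 27.0 CPM of DAPK3, open points those with 10.6 to 13.1 CPM, and grey bars the mean and SD of each label. SMAD6 is the one panel in which the labels do not overlap, with 1.53 to 2.11 CPM in KO and 2.95 to 7.36 CPM in control.

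GREM1 and FST were next to undetected. GREM1 (ENSG00000166923, chromosome 15, 32717974 to 32745107, plus strand) had 0 expected counts in each KO library and 2, 0 and 0 in control R1, R2 and R3. FST (ENSG00000134363, chromosome 5, 53480409 to 53487134, plus strand) had 0 in each KO library and 0, 2 and 0 in control R1, R2 and R3. A count of 0 allows up to 3 counts, or 0.132 to 0.184 CPM depending on the library, and covers counting error only. No fold change is given for either gene, and neither entered the tests.

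The test across all genes was edgeR's quasi-likelihood test with Benjamini-Hochberg adjustment, called at an adjusted p under 0.05, and the 8 other members passed its filter. With all 6 libraries edgeR called 0 of 14613 genes, a share of 0%, and therefore 0 members, while 1119 genes (7.66%) had an unadjusted p under 0.05, among them 1 member, SMAD6, which was lower, as were 4.17% of genes at that p. limma-voom also called 0 genes. DESeq2 called 124, none of them among the 6 members to which it gave an adjusted p, while BMP4 and SMAD6 received none. Without both R2 libraries edgeR called 4055 of 14846 genes, or 27.3%, and 6 of the 8 members, with 5 lower (background 15.2%) and 1 higher (background 12.2%). BMP4 passed the filter there through the control libraries alone, so it had to be lower, and of the 7 other members 4 were called lower. The members' median log2 fold change, KO over control, was −0.36 with all libraries and −0.74 without both R2 libraries, against −0.00034 and −0.02 for all genes tested, and −0.65 for the 7 members other than BMP4 without both R2 libraries.

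BMP4, the ligand, was nearly silent in KO R1 and R3 and low but present in control R1 and R3. BMP4 (ENSG00000125378, chromosome 14, 53949736 to 53958761, minus strand) stood at 0.106, 0.858 and 0 CPM across KO libraries R1 to R3, from 2, 14 and 0 counts. It stood at 4.19, 0.145 and 4.04 CPM across control libraries R1 to R3, from 86, 3 and 81 counts. Control R2 fell among the KO libraries, so the labels overlapped, while KO R2 lay between the 2 sets. With all libraries the log2 fold change was −3.17 (SE 1.496, adjusted p = 0.67 by edgeR). Without both R2 libraries BMP4 was lower, with 2 counts in KO R1 and R3 together against 167 in control R1 and R3, a level 85.6 times lower in KO (95% exact interval 23.3 to 713, counting error only). The edgeR adjusted p there was 0.0013, for a gene that passed the filter only because control was high. The size rested on single KO libraries: KO R1 alone gave a level 38.8 times lower (95% exact interval 10.6 to 323), and KO R3 alone, with 0 counts, at least 31.2-fold lower against the floor of 3 counts per library. Among the 3 libraries with more DAPK3 RNA, KO R2 had 0.858 CPM, below 4.19 and 4.04 CPM in control R1 and R3. With the first principal component as a covariate BMP4 stood at −1.93 on the log2 scale (SE 0.53, edgeR unadjusted p = 0.0063, adjusted p = 0.19), and 2 of the 8 members, SMAD6 the other, had an unadjusted p under 0.05 in that fit, where the background was 15.2%.

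BMP1, the tolloid protease, was lower in each library with less DAPK3 RNA than in each with more. Between these sets 43.8% of all genes tested did not overlap. Within each set BMP1 was lowest where DAPK3 was highest. BMP1 (ENSG00000168487, chromosome 8, 22164736 to 22212326, plus strand) stood at 48.6, 78.6 and 52.1 CPM across KO libraries R1 to R3, against 81.1, 61.0 and 94.2 CPM across control libraries R1 to R3. The annotated gene AC105206.1 shares 461 exon bases with it on the same strand, where the counting could divide reads. KO R2 was near control R1, and control R2 was nearer to KO R3 than to either other control. The label means were 59.7 ± 16.4 CPM in KO and 78.8 ± 16.7 CPM in control (SD, n = 3), with a log2 fold change of −0.40 (SE 0.25, adjusted p = 0.72 by edgeR). BMP1 fell without both R2 libraries, by 0.83 on the log2 scale (SE 0.14, adjusted p = 0.0056 by edgeR).

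Both receptor members were lower in KO R1 and R3, BMPR2 by more than BMPR1A. BMPR2, the type II receptor (ENSG00000204217, chromosome 2, 202376936 to 202567751, plus strand), stood at 27.1, 46.2 and 22.8 CPM across KO libraries R1 to R3, against 48.3, 25.8 and 46.2 CPM across control libraries R1 to R3. The 3 values near 25 and the 3 near 47 each contained both labels, and the fold change over all libraries was −0.33 (log2, SE 0.35, adjusted p = 0.82 by edgeR). BMPR2 fell by 0.95 on the log2 scale without both R2 libraries (SE 0.14, adjusted p = 0.0044 by edgeR). BMPR1A, a type I receptor (ENSG00000107779, chromosome 10, 86756601 to 86932838, plus strand), stood at 37.7, 41.8 and 39.1 CPM across KO libraries R1 to R3, against 51.8, 39.6 and 48.2 CPM across control libraries R1 to R3. Its highest level was 1.37 times its lowest, the narrowest range of the 8 members. Its log2 fold change was −0.24 with all libraries (SE 0.14, adjusted p = 0.71 by edgeR) and −0.41 without both R2 libraries (SE 0.13, adjusted p = 0.049 by edgeR). That call stood close to the threshold and was lost under each of 10 of the 11 other settings tried, with edgeR, DESeq2 or limma adjusted p from 0.052 to 0.21. The related pseudogene BMPR1APS1 held at most 3.3 expected counts, so few reads could have been divided with it.

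SMAD6 was the 1 member tested whose labels did not overlap. SMAD6, the inhibitory SMAD (ENSG00000137834, chromosome 15, 66702228 to 66782848, plus strand), stood at 1.59, 1.53 and 2.11 CPM across KO libraries R1 to R3, from 30, 25 and 48 counts. It stood at 7.36, 2.95 and 4.29 CPM across control libraries R1 to R3, from 151, 61 and 86 counts. Each KO library lay below each control library, KO R2 included. Such separation was seen in 1 of the 8 members tested, no higher a share than the 13.6% of all genes tested, in either direction. It also rests on both R2 labels: were these exchanged, the labels of SMAD6 would overlap. Control R2 was nearer to KO R3 than to control R3. The label means were 1.74 ± 0.317 CPM in KO and 4.86 ± 2.26 CPM in control (SD, n = 3). The log2 fold change with all libraries was −1.48 (SE 0.40, edgeR unadjusted p = 0.0083, adjusted p = 0.64), which did not pass the threshold. Without both R2 libraries SMAD6 fell by 1.67 (log2, SE 0.36, adjusted p = 0.016 by edgeR), and when control R1, its highest library, was left out as well the value was −1.23 and the call was lost (edgeR adjusted p = 0.081).

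The ID genes did not move as a set. ID1 (ENSG00000125968, chromosome 20, 31605283 to 31606515, plus strand) stood at 49.4, 21.6 and 70.0 CPM across KO libraries R1 to R3, against 28.9, 75.9 and 23.01 CPM across control libraries R1 to R3. The 3 libraries with less DAPK3 RNA, 1 of them labelled control, held the 3 highest ID1 levels. ID1 averaged 47.0 ± 24.3 CPM in KO and 42.6 ± 28.99 CPM in control (SD, n = 3), a log2 fold change of 0.14 (SE 0.56, adjusted p = 0.95 by edgeR). ID1 rose by 1.17 on the log2 scale without both R2 libraries (SE 0.20, adjusted p = 0.0069 by edgeR).

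ID3 (ENSG00000117318, chromosome 1, 23557918 to 23559794, minus strand) stood at 97.1, 73.1 and 147 CPM across KO libraries R1 to R3, against 102, 165 and 54.7 CPM across control libraries R1 to R3. Its order resembled that of ID1, except that control R1 lay above KO R1 and KO R2 above control R3. Neither comparison called it, with log2 fold changes of −0.02 (SE 0.42, adjusted p = 0.99 by edgeR) with all libraries and 0.61 (SE 0.30, adjusted p = 0.18 by edgeR) without both R2 libraries. That second value rested on single libraries: leaving out control R1 too gave 1.13 (edgeR adjusted p = 0.015), KO R1 0.89 (adjusted p = 0.0039), control R3 0.22 (adjusted p = 0.55) and KO R3 0.28 (adjusted p = 0.43).

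ID2 (ENSG00000115738, chromosome 2, 8678845 to 8684453, plus strand) stood at 4.62, 3.31 and 5.05 CPM across KO libraries R1 to R3, against 7.79, 4.88 and 7.09 CPM across control libraries R1 to R3. The labels overlapped only in KO R3 and control R2, and ID2 was lowest in KO R2, where DAPK3 was highest. Its log2 fold changes, −0.61 with all libraries (SE 0.29, adjusted p = 0.67 by edgeR) and −0.65 without both R2 libraries (SE 0.23, adjusted p = 0.078 by edgeR), were not called. As the strand setting of the counts is not given in the sources used here, reads of the antisense gene ID2-AS1, which shares 38 exon bases with ID2 and held at most 3 counts, cannot be told apart in that overlap.

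**Figure D2:**
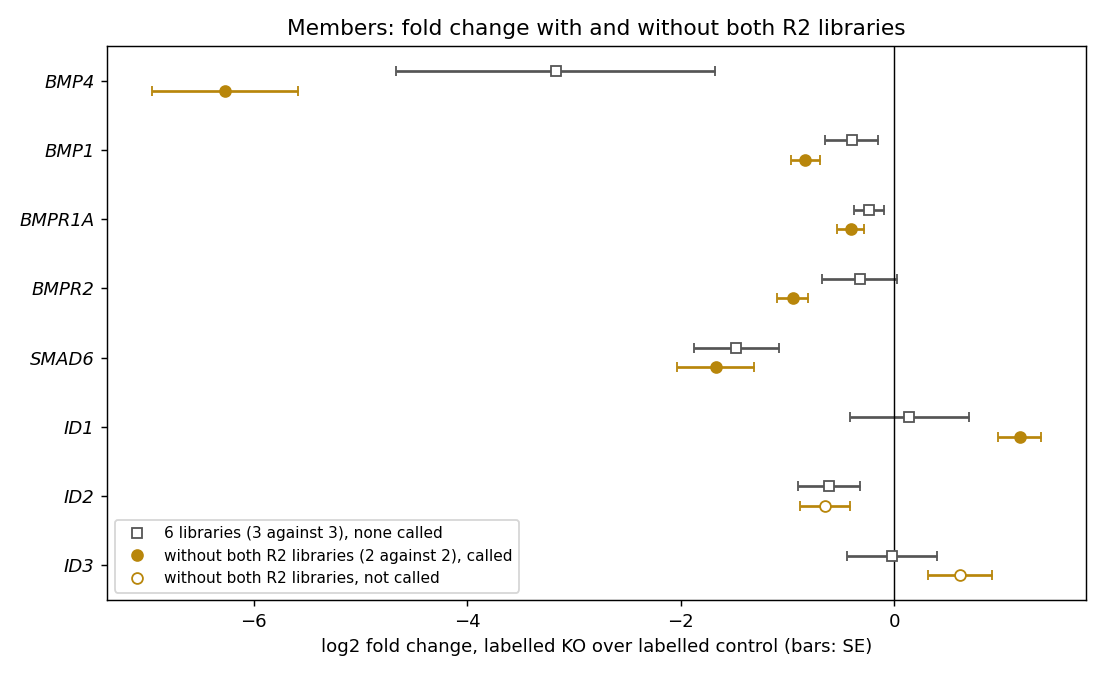
Log2 fold change of the labelled KO over the labelled control libraries (horizontal axis, bars SE) for 8 members, with all 6 libraries (open squares) and without both R2 libraries (circles, filled where edgeR's adjusted p was under 0.05). SMAD6, ID2 and BMPR1A change little between the comparisons (−1.48 and −1.67, −0.61 and −0.65, −0.24 and −0.41), which share the R1 and R3 libraries. ID1 stands at 0.14 and 1.17.

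Set out by DAPK3 level and not by label, 5 of the 8 members (BMP4, BMP1, BMPR1A, BMPR2 and ID1) had no overlap between the 3 libraries with 10.6 to 13.1 CPM of DAPK3 and the 3 with 25.9 to 27.0 CPM. The same held for 43.8% of all genes tested, so the members' share is set beside a high background. In the libraries with less DAPK3 RNA, BMPR2 ran from 22.8 to 27.1 CPM, against 46.2 to 48.3 CPM in the others. ID1 ran the other way, from 49.4 to 75.9 CPM against 21.6 to 28.9 CPM. ID2, ID3 and SMAD6 overlapped in this order. These sets were made from a measured level, so they are described without a test.

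**Figure D3:**
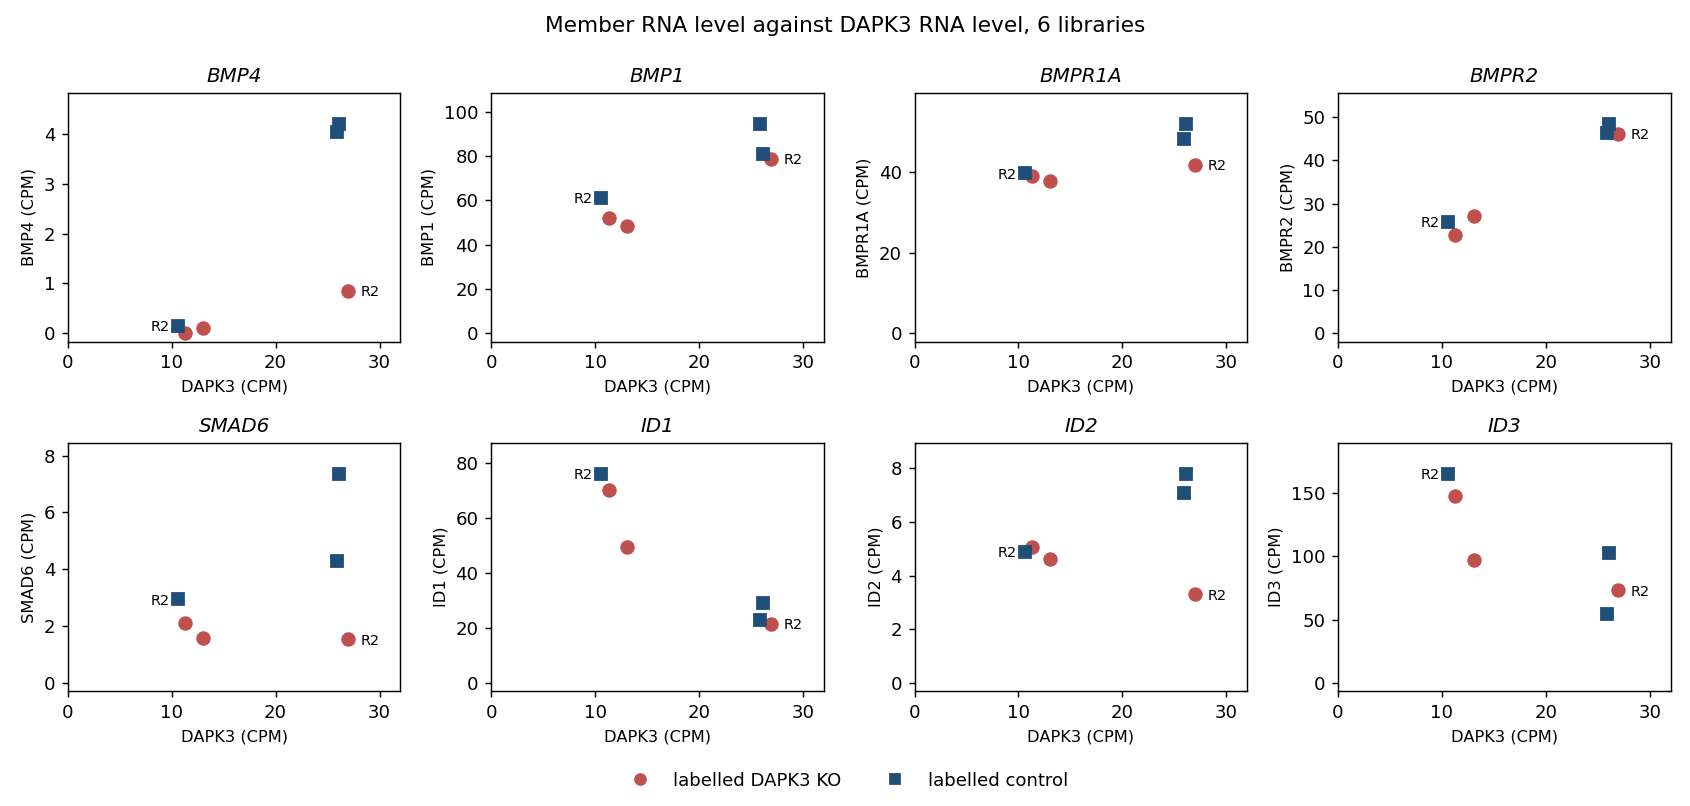
RNA level of 8 members (vertical axes, CPM) against DAPK3 RNA level (horizontal axes, CPM), 1 point per library, circles for KO, squares for control, and R2 written beside both R2 libraries. BMPR2 and ID1 form a group of 3 points on each side, each with both labels, while in the SMAD6 panel KO R2 (1.53 CPM) lies with the other KO libraries.

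Genes whose levels ran most like a member's were sought for the 3 members with the widest log2 range and enough expression, SMAD6, ID1 and ID3, among 12013 genes, by the root mean square distance of centred log2 CPM over the 6 libraries. Nearest to SMAD6 were HSP90AA1 (distance 0.21), encoding a cytosolic heat shock chaperone, HMGCS1 (0.25) and MSMO1 (0.25), both enzymes of cholesterol synthesis. HMGCS1 stood at 28.6, 26.3 and 28.5 CPM across KO libraries R1 to R3 and at 99.4, 34.5 and 80.5 CPM across control libraries R1 to R3. Its labels did not overlap, nor did those of HSP90AA1 and MSMO1. All were picked for nearness to SMAD6 over these same libraries, so this adds nothing about the label. Nearest to ID1 were B3GALNT1 (0.10), a glycosyltransferase gene, PLA2G4A (0.13), a phospholipase gene, and HIST1H1C (0.14), a linker histone gene. Nearest to ID3 were C21orf33 (0.10), ADGRG6 (0.10), an adhesion receptor gene, and BORCS6 (0.11). With 6 libraries many genes share an order, and nearness says nothing of shared control.

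Beyond the members, 67 further genes of the pathway were listed by role, of which 37 passed the filter. Without both R2 libraries 7 were called higher and 9 lower, where 12.2% and 15.2% of all genes were. INHBA, among the 7, and BMP8B, among the 9, passed the filter through 1 label alone, so their directions were fixed. The median log2 fold change of the 37 was −0.12 there, against −0.02 for all genes. With all libraries edgeR called 0 of the 37, and 3 had an unadjusted p under 0.05 (background 7.66%): NBL1, BAMBI and SMURF1. The fold changes that follow are log2 of KO R1 and R3 over control R1 and R3 unless another fit is named. Some genes called without both R2 libraries changed sign with all 6 libraries and the first principal component as a covariate. They were BMP8B (0.30), INHBA (−0.11), NEO1 (−0.32), CRIM1 (0.16), FSTL3 (0.34) and RUNX2 (0.55), none of them called by edgeR in that fit. Genes not called without both R2 libraries changed sign too, among them SMAD9 (−0.37) and SMAD4 (−0.02).

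Ligands other than BMP4 were scarce. Of 14 listed, 12 had at most 10 counts in any library, and the 2 tested were BMP8B and BMP2. BMP8B was lower without both R2 libraries, at 1.11, 3.49 and 0.351 CPM across KO libraries R1 to R3 and 4.68, 0.193 and 5.09 CPM across control libraries R1 to R3 (log2 fold change −2.79, SE 0.50, adjusted p = 0.0080 by edgeR). INHBA, which encodes the activin A subunit that follistatin binds, was very low and higher in KO without both R2 libraries, at 0.849, 0.123 and 0.791 CPM across KO libraries R1 to R3 and 0.0487, 1.01 and 0.0499 CPM across control libraries R1 to R3 (3.87, SE 0.65, adjusted p = 0.0065 by edgeR). BMP8B passed the filter there through control alone and INHBA through KO alone, so each had to differ. Among the tolloid proteases TLL1 fell like BMP1, with −1.15 (SE 0.19, adjusted p = 0.0055 by edgeR), at 9.71, 19.4 and 12.7 CPM across KO libraries R1 to R3 and 24.1, 14.2 and 24.8 CPM across control libraries R1 to R3.

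Of the 16 genes listed as secreted antagonists other than GREM1 and FST, 6 were tested. Without both R2 libraries 5 of the 6 fell (background 15.2%) and 0 rose, and the 5 include CRIM1, whose product is anchored in the membrane. With all libraries 0 of the 6 were called and their median log2 fold change was −0.27. FSTL1, encoding a follistatin-like secreted protein, stood at 77.3, 323 and 110 CPM across KO libraries R1 to R3 and 433, 109 and 360 CPM across control libraries R1 to R3 (−2.11, SE 0.19, adjusted p = 0.00061 by edgeR). CRIM1, encoding a membrane-anchored BMP-binding protein, and FSTL3, encoding an activin-binding protein, had −0.99 (SE 0.16, adjusted p = 0.0052 by edgeR) and −0.88 (SE 0.14, adjusted p = 0.0056 by edgeR). CRIM1 stood at 186, 489 and 249 CPM across KO libraries R1 to R3 and 428, 211 and 417 CPM across control libraries R1 to R3. FSTL3 stood at 91.9, 220.1 and 112 CPM across KO libraries R1 to R3 and 173, 80.1 and 195 CPM across control libraries R1 to R3. KO R2 was the highest library for both, and with all libraries their log2 fold changes were −0.20 and −0.08.

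On the receptor side the members and some of their relatives moved in opposite directions. BMPR1B, the other BMP type I receptor gene, stood at 6.74, 3.00 and 7.34 CPM across KO libraries R1 to R3 and 1.95, 3.96 and 2.69 CPM across control libraries R1 to R3, and rose (1.57, SE 0.29, adjusted p = 0.0088 by edgeR). NEO1, encoding neogenin, a receptor for repulsive guidance molecules that act as BMP co-receptors, stood at 113, 14.3 and 123 CPM across KO libraries R1 to R3 and 19.2, 129 and 18.9 CPM across control libraries R1 to R3 (2.60, SE 0.13, adjusted p = 7e-05 by edgeR). BAMBI, encoding a pseudoreceptor without kinase activity, rose (1.26, SE 0.33, adjusted p = 0.030 by edgeR), and its labels did not overlap, at 6.90, 3.92 and 4.26 CPM across KO libraries R1 to R3 and 2.24, 3.53 and 2.30 CPM across control libraries R1 to R3. No other tested receptor or co-receptor gene was called. Outside the members, 1 of 4 receptor and 1 of 5 co-receptor genes tested were thus called, where 27.3% of all genes were.

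Downstream, 1 of the 5 other SMAD genes tested was called, where 27.3% of all genes were called without both R2 libraries. It was SMAD1, which carries the signal. It rose (0.84, SE 0.16, adjusted p = 0.0088 by edgeR), at 35.8, 28.0 and 37.4 CPM across KO libraries R1 to R3 and 22.2, 41.0 and 17.9 CPM across control libraries R1 to R3. SMAD4, SMAD5, SMAD7 and SMAD9 were not called. SMURF1 and SMURF2, which encode ubiquitin ligases acting on SMADs, rose by 0.48 (SE 0.12, adjusted p = 0.024 by edgeR) and 0.62 (SE 0.14, adjusted p = 0.019 by edgeR). The co-repressor genes SKI and SKIL were not called, at 0.11 (SE 0.14) and 0.08 (SE 0.15).

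Among other targets RUNX2, a transcription factor gene of the bone lineage, fell by 2.71 (SE 0.24, adjusted p = 0.00055 by edgeR), at 5.47, 42.5 and 3.91 CPM across KO libraries R1 to R3 and 34.2, 3.62 and 25.7 CPM across control libraries R1 to R3. MSX1, HEY1 and ATOH8 were tested and not called, so 1 of these 4 targets was called, where 27.3% of all genes were. ID4 had 0 counts in every library. Of the E protein genes whose products bind ID proteins, TCF4 fell by 2.11 (SE 0.26, adjusted p = 0.0020 by edgeR), at 2.23, 10.6 and 2.59 CPM across KO libraries R1 to R3 and 11.5, 3.24 and 8.98 CPM across control libraries R1 to R3, while TCF3 and TCF12 were not called. Thus 1 of the 3 E protein genes was called, beside the same 27.3% of all genes. In RUNX2, TCF4 and NEO1 both R2 libraries stood with the other label.

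**Figure D4:**
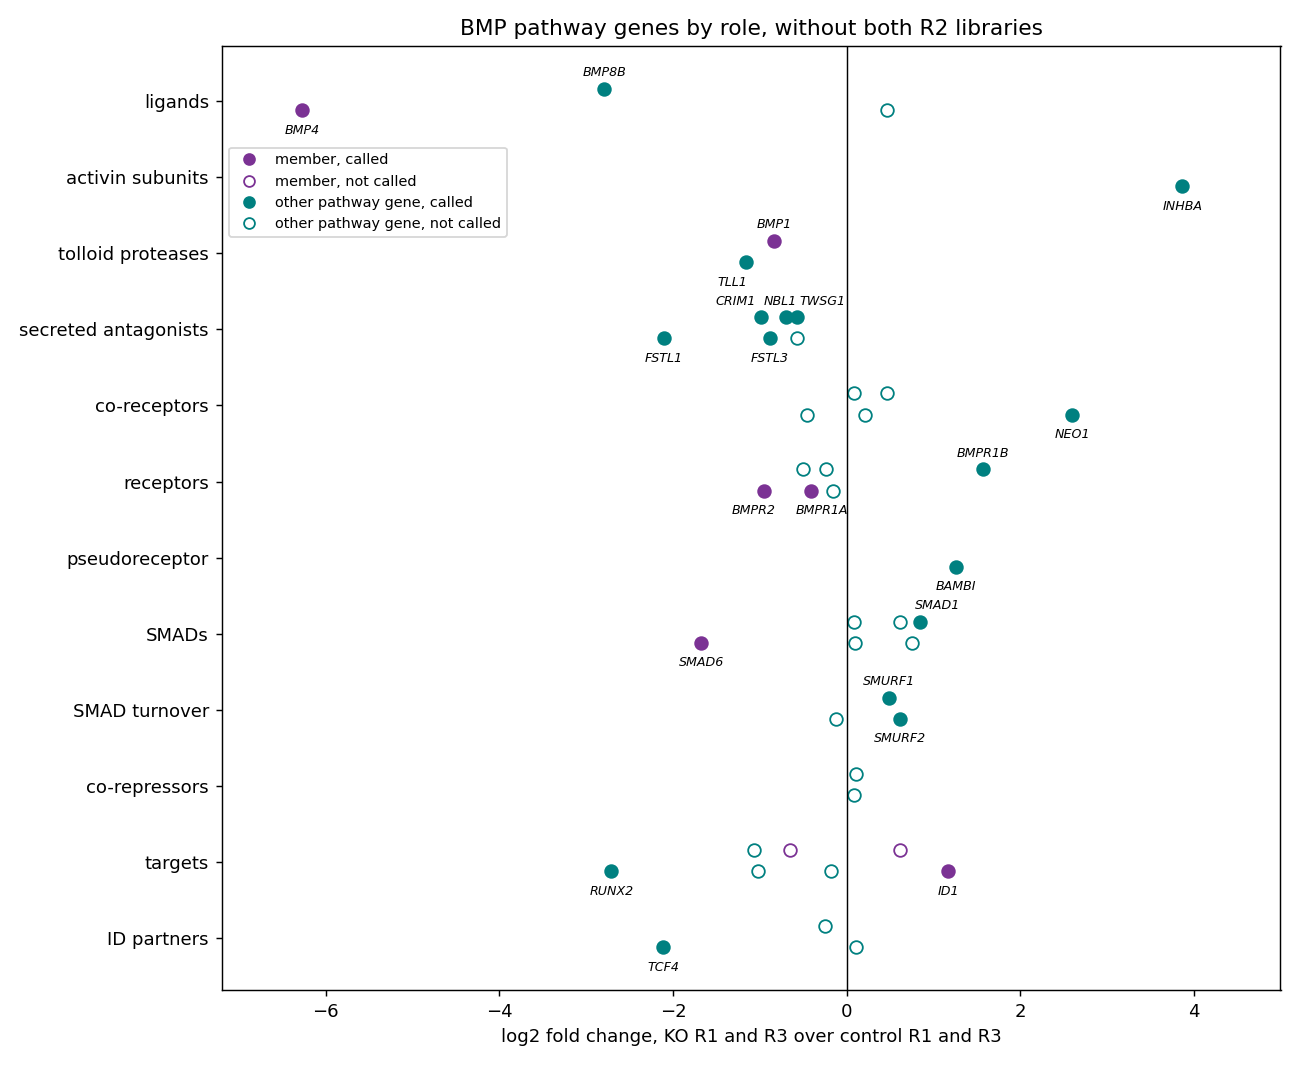
Log2 fold change of KO R1 and R3 over control R1 and R3 (horizontal axis) for the members (purple) and other pathway genes (teal) that passed the filter, by role (rows); filled points had an edgeR adjusted p under 0.05. The called genes listed as secreted antagonists or tolloid proteases all lie left of 0. INHBA (3.87) and NEO1 (2.60) lie farthest to the right.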

How the data were processed

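Polyadenylated RNA of 6 libraries was sequenced by the submitters. The deposited values are gene-level expected counts from RSEM, estimated, not normalized and not always whole (9.42% to 10.6% of values per library were not), per the file headers. RSEM, Bowtie2, edgeR and GRCh38 are named in the submitters' processing notes; their versions, the strand setting and the annotation release are not stated in the labels or headers.

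Expected counts were rounded. CPM values divide the rounded counts by the library total times its TMM factor (0.991 to 1.01). KO was compared with control by quasi-likelihood tests in edgeR 4.0.16 under R 4.3.3, with TMM and filterByExpr, without a block, and each SE is the absolute fold change over the square root of F. The steps were tested on simulated counts. DESeq2 1.42.0 and limma 3.58.1 (voom) were alternatives. The members, lists, rules for named genes and comparison without both R2 libraries were chosen with earlier results of these data known. Named beside DAPK3 and the members are, in each role, up to 3 called genes per direction with the largest change without both R2 libraries. In a role with none called, the 2 with the highest level are named. SMAD genes not called, BMP2, NBL1, MSX1, HEY1, ATOH8, TCF3, TCF12 and ID4 were named after their values were seen. Coordinates and exon lengths are from GENCODE release 29 (GRCh38), which holds all 10 members by identifier and may differ from the authors' release; promoters are from RefSeq. Of 78 listed symbols, 77 were in the table.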

Additional observations from a re-analysis of the deposited data

How the results depend on the processing

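For KO against control, other settings, those leaving out libraries included, gave 117 member fold changes with an adjusted p, of which 101 kept their direction and their side of the threshold; DESeq2 gave none for BMP4 and SMAD6. Leaving out both R2 libraries gave 4055 called genes and 6 called members in place of 0 and 0, and DESeq2 gave 124 called genes. Directions reversed only for ID1 and ID3, both close to 0. For ID1 the first principal component as a covariate gave −0.34, and leaving out 1 library gave −0.27 to 0.83. For ID3 limma-voom gave 0.067, the comparison without both R2 libraries 0.61, and leaving out 1 library −0.34 to 0.41. The cause was not tested.

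Without both R2 libraries, 75 of 88 member fold changes kept their direction and call. Leaving out 1 more library gave 2543 to 3700 called genes, 2543 without control R1, in fits where 1 arm holds a lone library, taken to vary as the other arm does, and 5 or 6 called members. The replicate number as a block gave 0 called genes with all libraries and reversed ID3 to 0.049; without both R2 libraries the replicate block gave 2705 genes and 5 members. Same-numbered libraries deviated oppositely, with correlations of −0.63, −0.85 and −0.67. So did KO R1 with control R3 (−0.37) and KO R3 with control R1 (−0.60). As both R2 libraries lay apart from the others of their label, these values cannot show whether replicates were paired. The numbers were not used as pairs. BMP4, GREM1, FST and SMAD6 are limited by low counts.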

Other observations

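Some further pathway genes, chosen after their values were seen, had labels that did not overlap. They were 7 of the 37 tested, against 13.6% of all genes: BMP2, TGFBR3, NBL1, BAMBI, SMURF1, ATOH8 and TCF12. A gene whose labels do not overlap must overlap between the DAPK3 sets, so this does not set the label against the DAPK3 level. BAMBI and SMURF1 crossed those sets only between the R2 libraries, at 3.53 and 65.9 CPM in control R2 against 3.92 and 70.0 CPM in KO R2. None of the 7 was called by edgeR with all libraries (smallest adjusted p = 0.64). ATOH8, a transcription factor gene known as a BMP target, stood at 11.995, 26.7 and 26.0 CPM across KO libraries R1 to R3 and 50.1, 34.2 and 28.3 CPM across control libraries R1 to R3. NBL1, encoding a secreted BMP antagonist, stood at 18.5, 22.8 and 19.5 CPM across KO libraries R1 to R3 and 33.6, 28.0 and 26.9 CPM across control libraries R1 to R3 (log2 fold change −0.54, SE 0.16, adjusted p = 0.64 by edgeR). TGFBR3, encoding the co-receptor betaglycan, stood at 20.1, 16.2 and 20.9 CPM across KO libraries R1 to R3 and 30.2, 21.2 and 25.1 CPM across control libraries R1 to R3. SMURF1 stood at 71.4, 70.0 and 73.9 CPM across KO libraries R1 to R3 and 53.2, 65.9 and 48.6 CPM across control libraries R1 to R3 (log2 fold change 0.36, SE 0.13, adjusted p = 0.64 by edgeR).

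The balance of ID1 to SMAD6, both induced by BMP signalling, differed between libraries. Per kb of merged exons, ID1 exceeded SMAD6 by 216, 97.8 and 230 times in KO R1, R2 and R3 and by 27.3, 179 and 37.2 times in control R1, R2 and R3. The value in control R2 lies above that in KO R2, so the labels overlap. By DAPK3 level there was no overlap, as for ID1 alone: KO R1, KO R3 and control R2, with less DAPK3 RNA, held the 3 highest values. No test was made.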
